A study of Mus musculus with 12 samples.

Results

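The expression of 10 oncofetal genes was followed through postnatal heart growth and through 2 mouse models of Lemd2 deficiency. They are the chromatin architectural genes Hmga1 and Hmga2, the let-7 inhibitors Lin28a and Lin28b, the RNA-binding genes Igf2bp1, Igf2bp2 and Igf2bp3, and the imprinted growth genes Igf2, H19 and Dlk1. These 10 genes were chosen by symbol from the 24062 rows of the gene count matrix, and every symbol had a row. Whole hearts of 12 mice had been sequenced as poly(A) RNA, with 3 mice in each of 4 groups. WT mice and KI/KI mice, homozygous for the Lemd2 c.T38>G knock-in allele, were 2 months old. Lemd2-floxed mice and cardiac-specific cKO mice were at postnatal day 1 (P1). The floxed controls carry loxP sites around exon 1 and no Cre, and the cKO mice carry the same allele with Cre under the Myh6 promoter, which is active in cardiomyocytes. No group with Cre alone was included, and other heart cells of cKO mice keep an intact allele. Adult and P1 mice therefore differ in age, in line and in the floxed allele, and these cannot be told apart in the comparison of WT with floxed hearts.

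Oncofetal genes are active in the embryo, silenced in most tissues after birth and often switched on again in tumors. LIN28 proteins block maturation of the let-7 microRNAs, which in turn repress Lin28b, Hmga2 and the Igf2bp genes, a loop in which each side keeps the other low. Igf2bp proteins bind and stabilize fetal mRNAs, among them Igf2, the main fetal insulin-like growth factor. Igf2 is expressed from the paternal allele and its neighbor H19, a long noncoding RNA, from the maternal allele. Dlk1, a Notch-like membrane protein of fetal progenitors, is a paternally expressed gene of another imprinted domain.

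Library totals ran from 37063669 to 44789753 counts. Levels are CPM values after TMM scaling over all 12 hearts, and 3 counts, taken as the floor, equal 0.0603 to 0.0962 CPM. Floors and counting intervals cover counting error only. Lemd2, the targeted gene, was at 31.9 to 34.7 CPM in WT hearts and 24.8 to 25.6 CPM in KI/KI hearts. It was at 24.4 to 25.3 CPM in floxed hearts and 6.64 to 13.1 CPM in cKO hearts. Defining cardiomyocyte markers were abundant in every heart, with none of 9 at 0. Some hearts stood apart from their group. The cKO heart labelled 4 had Xist at 617 CPM and Y-linked Uty and Kdm5d at 0, whereas Xist did not exceed 2.03 CPM in the other 11 hearts. The cKO heart labelled 6 had the atrial light chains Myl7 and Myl4 at 118 and 287 CPM, against at least 348 and 458 CPM in the other P1 hearts. The summed level of 8 lung markers was 23.6 to 50.8 CPM in floxed 1, floxed 2 and cKO 4 and 2.44 to 5.27 CPM in the other P1 hearts. Among adults it was 101 CPM in WT 3 and 35.1 CPM in KI/KI 4, and at most 0.724 CPM in the rest. Most of it was a single gene, Scgb1a1, at 95.6 CPM in WT 3 and 34.0 CPM in KI/KI 4. Scgb1a1 was at 12.8 to 34.6 CPM in floxed 1, floxed 2 and cKO 4. Nothing in the labels says whether mice of a group came from separate litters, so p-values measure the spread between these hearts.

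The sequence link between let-7 and these genes is shown first, because let-7 binding is the best-known control that several of them share. In RefSeq (GRCm38.p6), 11 mature mouse microRNAs carry the let-7 seed, bases 2 to 8 counted from the 5′ end, shown in capitals. Each is written 5′ to 3′.
mmu-let-7a-5p: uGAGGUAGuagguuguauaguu
mmu-let-7g-5p: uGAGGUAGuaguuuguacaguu
mmu-miR-98-5p: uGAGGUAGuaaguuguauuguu

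The 7 letters that pair with this seed, CTACCTC, were searched on the sense strand of 3′ untranslated regions of GENCODE M21 transcripts (GRCm38, the build called mm10). They occur in 1896 of 21022 coding genes, or 9.0%. Hmga2, Lin28b and Igf2bp1 each hold 4 matches, a number that 12 genes in all (0.057%) reach. Lin28a holds 2, Hmga1, Igf2bp2 and Igf2bp3 hold 1 each, and Igf2 and Dlk1 hold none. H19 is noncoding and was not searched. Long untranslated regions hold matches more often. Among genes with a region within 10% of the same length, the share with any match was 14.5% for Hmga2 (3014 bases), 22.7% for Lin28b (4445 bases) and 35.8% for Igf2bp1 (6337 bases). The sites below, all in the last part of the mRNA after the stop codon, are printed 5′ to 3′ along the gene, with the match in capitals. An A in capitals after the match marks the 8-base type of match.
Hmga2, chr10:120364224-120364246, minus strand: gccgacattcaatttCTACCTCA
Hmga2, chr10:120361691-120361713, minus strand: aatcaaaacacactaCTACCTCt
Lin28b, chr10:45381022-45381044, minus strand: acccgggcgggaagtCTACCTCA
Igf2bp1, chr11:95961778-95961800, minus strand: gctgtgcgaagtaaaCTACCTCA
Igf2bp1, chr11:95959357-95959379, minus strand: cagcagtgctattaaCTACCTCA
Igf2bp2, chr16:22059473-22059495, minus strand: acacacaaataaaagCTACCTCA
Igf2bp3, chr6:49086787-49086809, minus strand: tgcatttttactcaaCTACCTCA

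The map of matches shows that the first sites of Hmga2 and Lin28b lie 58 and 36 bases into the untranslated region, while those of Igf2bp1 lie further in, from base 1715. A match is a description of the letters and not evidence of binding. Mature let-7 was not measured, since poly(A) libraries hold few small RNAs. The 14 let-7 hairpin rows had 0 to 52 counts in any heart, and these say nothing about mature levels.

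**Figure D1:**
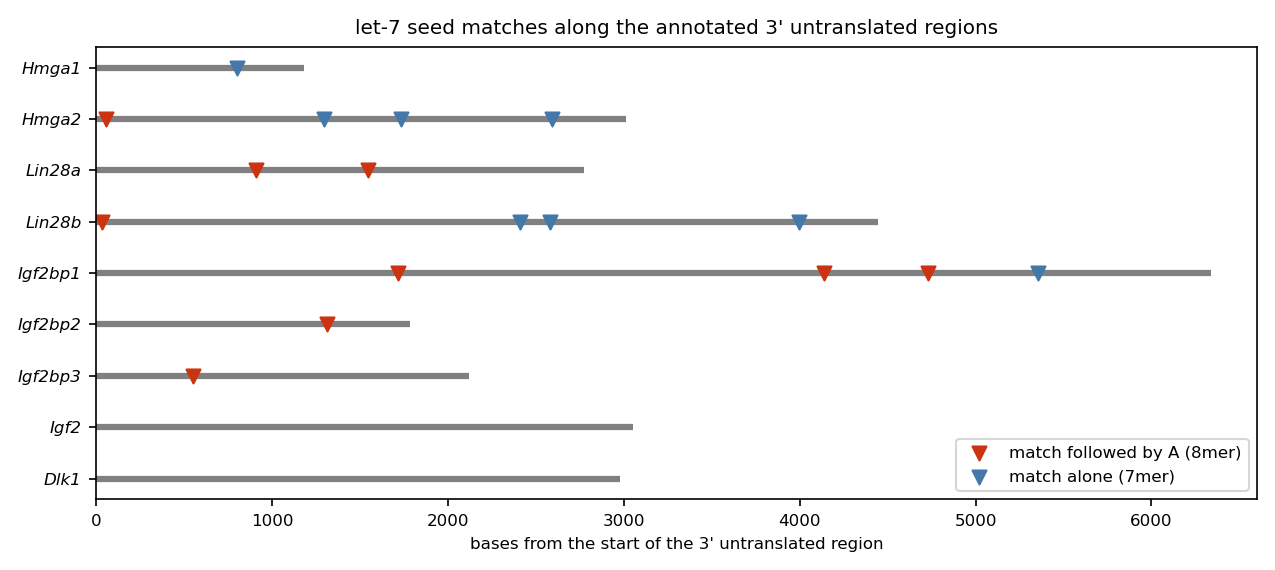
Positions of let-7 seed matches (triangles) along the annotated 3′ untranslated region of each coding gene (grey bars, x axis in bases from its start). Red triangles are followed by an A and blue ones are not. Hmga2, Lin28b and Igf2bp1 have 4 matches each, and Igf2 and Dlk1 have none.

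Adult WT hearts were compared with P1 floxed hearts to ask how far these genes had fallen by 2 months. Of the 10 genes, 9 passed the filter on low counts, and 8 of them were called lower in adult hearts, a call that required more than 2-fold change besides an adjusted p under 0.05. Over all genes the share called lower was 13.9% of 15183, and the share called higher was 13.4%. Without TMM scaling, by library size alone, the median log2 fold change of all genes shifted by -0.40 and the share of higher genes among all calls went from 49.1% to 25.8%. The same number of oncofetal genes, 8, was called under that scaling. The median log2 fold change of the 9 genes was -5.20, against -0.042 over all genes. Genes that passed the filter only through their P1 level had to differ, so these counts describe the genes and do not support a pattern. In 8 of the 9 genes the WT and floxed hearts did not overlap, as in 70.9% of all genes tested, and 65.2% of all genes had an adjusted p under 0.05 at any fold. A lower level in whole hearts can come from fewer cells of a type or from less RNA per cell, and these cannot be told apart.

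**Figure D2:**
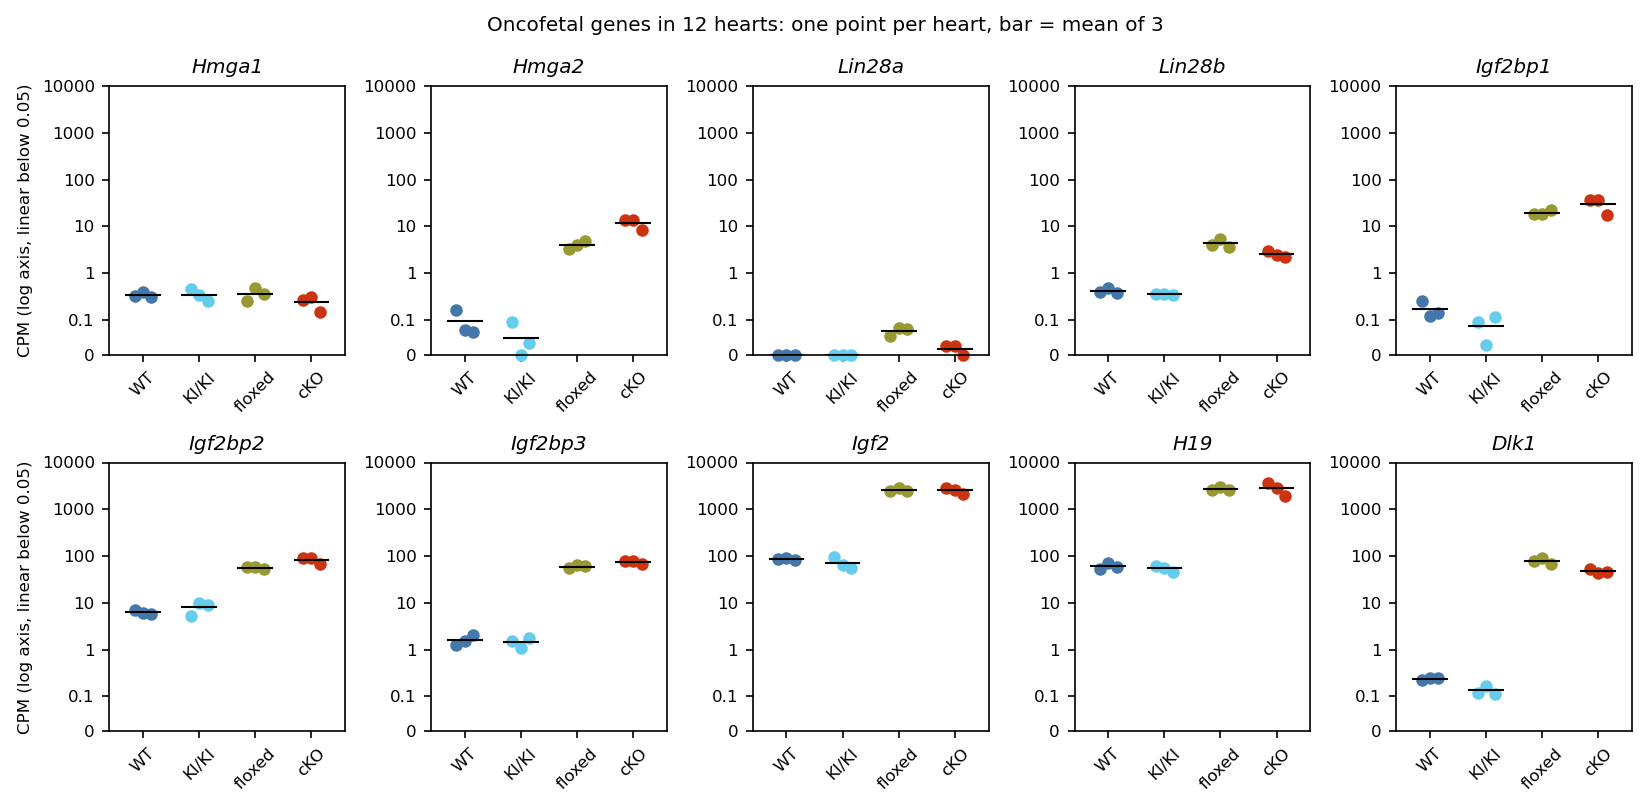
CPM of each oncofetal gene in every heart (y axis logarithmic above 0.05 CPM and linear below), by group, with 1 point per heart and a bar at the mean of 3. Adult hearts lie below P1 hearts in 8 of the 10 panels, Hmga1 is level, and Lin28a is at or near 0 in every heart.

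Hmga2, which bends AT-rich DNA and is a textbook marker of fetal mesenchyme, lies on chromosome 10 from 120361275 to 120476469. Floxed hearts had 145, 186 and 225 counts of it, or 3.29, 4.06 and 4.78 CPM. WT hearts had 5, 2 and 2 counts, or 0.160, 0.0610 and 0.0546 CPM, so that 2 of the 3 were under the floor. The groups were far apart. The fitted log2 fold change was -5.45 (SE 0.40, adjusted p = 5.97e-06). Pooled over hearts, the floxed level was 45.4 times the WT level, with a counting interval of 23.7 to 99.7 (95%, exact). Some reads may be split with Hmga2-ps1, a pseudogene listed at 0.589 to 1.67 CPM in all hearts.

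Its relative Hmga1 behaved differently. It had 11, 22 and 17 counts in floxed hearts and 10, 13 and 11 in WT hearts, and the log2 fold change of -0.11 (SE 0.37) was not called (adjusted p = 0.806). The pooled ratio of floxed to WT was 1.08 (0.685 to 1.72). Its level is uncertain, since reads that fit more than one place in the genome may not have been counted.

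In floxed hearts, Lin28b stood at 4.06, 5.41 and 3.69 CPM, and in WT hearts at 0.385, 0.488 and 0.382 CPM. Adult counts were low, 12, 16 and 14, but above the floor in each heart. The log2 fold change was -3.39 (SE 0.29, adjusted p = 2.85e-05), and the pooled ratio was 10.5 (7.68 to 14.7). WT hearts held 9.53% of the floxed level of Lin28b, against 2.28% for Hmga2. Its paralog Lin28a, the form of early embryonic cells, had 2, 3 and 3 counts in floxed hearts and 0 in all 6 adult hearts. It did not pass the filter and is at or under the floor in every group, so no fold is given.

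The 3 Igf2bp genes fell to unequal levels. Igf2bp1 went from 18.5, 18.4 and 21.9 CPM to 0.257, 0.122 and 0.136 CPM, a pooled ratio of 116 (72.5 to 200). Igf2bp3 went from 54.4, 64.0 and 59.8 CPM to 1.25, 1.49 and 2.05 CPM. Igf2bp2, the family member that adult tissues retain, went from 57.8, 58.1 and 53.4 CPM to 6.96, 6.01 and 5.65 CPM. Their log2 fold changes were -6.84 (SE 0.24, adjusted p = 5.23e-07), -5.20 (SE 0.15, adjusted p = 3.11e-07) and -3.19 (SE 0.10, adjusted p = 3.19e-07). WT hearts thus held 0.875%, 2.69% and 11% of the floxed level of Igf2bp1, Igf2bp3 and Igf2bp2. Igf2bp3 shares 1529 exon bases with Malsu1 on the opposite strand, and the strand setting of the counting is not given in the sources used here. Malsu1 was at 9.62 to 16.2 CPM in all hearts.

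In floxed hearts the imprinted genes were the most abundant of the 10 per length. These hearts had H19 at 1109 ± 111 CPM per kb of exon and Igf2 at 445 ± 37.1 (SD, n = 3). Dlk1 was at 13.9 ± 2.24 CPM per kb, Igf2bp2 at 7.62 ± 0.359 and Hmga2 at 0.597 ± 0.110 on the same scale. Igf2 fell from 2417, 2791 and 2429 CPM to 88.2, 89.0 and 83.7 CPM, a log2 fold change of -4.88 (SE 0.10, adjusted p = 1.34e-07). H19 fell from 2604, 3041 and 2538 CPM to 52.7, 69.2 and 58.4 CPM, a log2 fold change of -5.51 (SE 0.14, adjusted p = 2.41e-07). Both stayed well above the floor in adult hearts. The 2 genes lie 72623 bases apart on chromosome 7. The ratio of H19 to Igf2 CPM was 1.05 to 1.09 in floxed hearts and 0.598 to 0.778 in WT hearts, without overlap. Igf2os, which is antisense to Igf2 and shares 98 exon bases with it, went from 14.9 to 19.4 CPM at P1 to 0.128 to 0.300 CPM. In GENCODE M21, Igf2 also shares 3596 exon bases with Gm49394, a protein-coding gene on the same strand. How reads from these bases were counted is not known.

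Dlk1, on chromosome 12, showed the largest fall of the 10 genes. Floxed hearts had it at 78.9, 91.4 and 66.1 CPM, and WT hearts held 7, 8 and 9 counts. The log2 fold change was -8.35 (SE 0.22, adjusted p = 2.41e-07), position 12 of 15183 genes ordered from the lowest, and the pooled ratio was 330 (222 to 515). WT hearts held 0.302% of the P1 level.

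**Figure D3:**
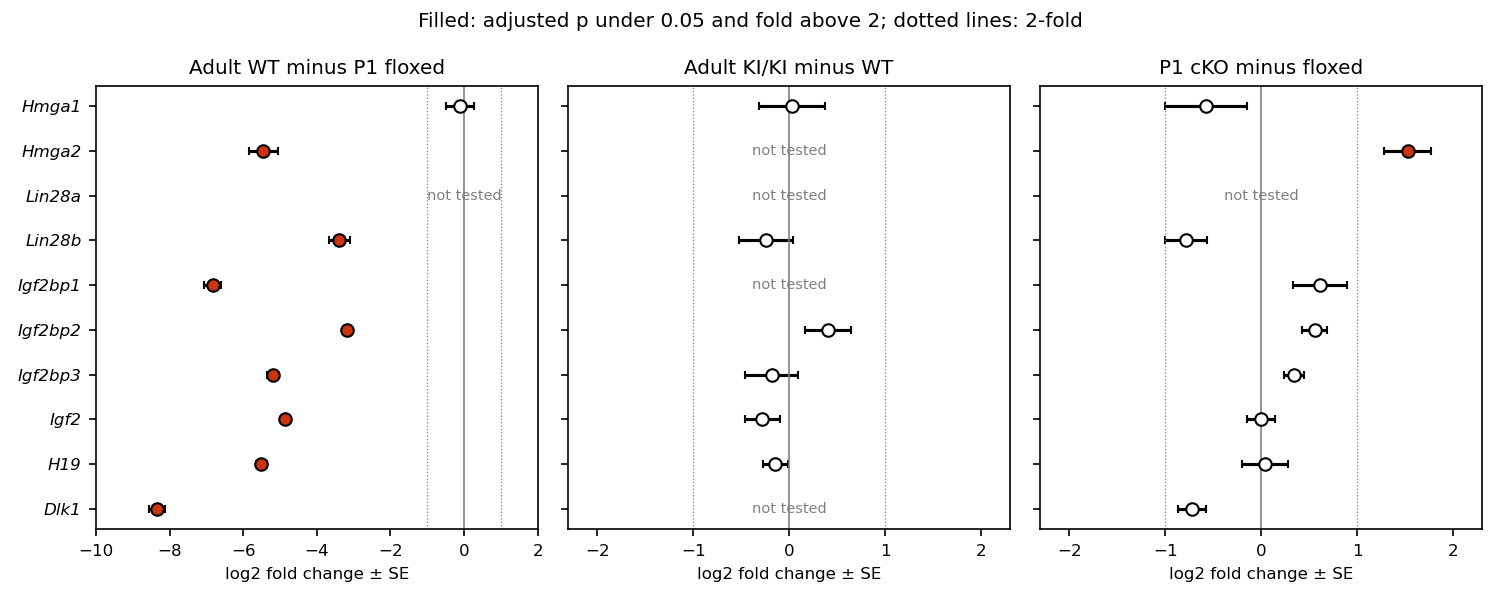
Log2 fold change with its standard error (x axis) for each oncofetal gene in the 3 comparisons of 3 against 3 hearts. Filled points were called (more than 2-fold change, adjusted p under 0.05), 8 genes in the comparison by age, 0 in KI/KI hearts and 1, Hmga2, in cKO hearts. The left panel has a wider axis.

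Marker levels moved along with age, where 13.9% of all genes were called lower and 13.4% higher. Proliferation markers were called lower in adult WT hearts for all 6 of 6, with a summed level of 280 to 393 CPM in floxed and 29.8 to 59.0 CPM in WT hearts. Fibroblast markers were called lower for 4 and higher for 1 of 6 and summed to 5006 to 5603 CPM and 1577 to 1926 CPM. Cardiomyocyte markers were called higher for 4 of 9, with sums of 40540 to 46180 CPM and 75600 to 83860 CPM. Smooth muscle markers were called lower for 3 of 4, with sums of 1121 to 1511 CPM and 175 to 218 CPM. Macrophage markers were called higher for 3 of 5, with sums of 55.9 to 68.7 CPM and 161 to 260 CPM. None of these markers was at 0 in either group, and their part in the fall of the oncofetal genes was not tested.

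Other genes of these pathways were taken from lists written for this comparison. For reference, 13.9% of all genes were called lower and 13.4% higher. Of 14 genes that make, tail or load let-7, 1 was called lower (7.14%) and none higher. This was Zcchc11, which adds the uridine tail to let-7 precursors bound by LIN28, at 54.1 ± 4.31 CPM in WT and 111 ± 9.11 CPM in floxed hearts (SD, n = 3), a log2 fold change of -1.04. It was past 2-fold by little, and without WT 2 or floxed 2 its log2 fold change was -0.97 or -0.98. Of 16 other let-7 targets tested, 3 were called lower (18.8%). They included Igf1r, the receptor of Igf2 (log2 fold change -1.29), and Arid3b, a DNA-binding factor (-1.02). Arid3b was past 2-fold by little, and without WT 1, WT 2 or floxed 3 its log2 fold change was -0.98, -0.86 or -0.95. In these fits, and with RLE size factors, 2 targets were called lower. The list median was -0.69. By library size alone, 4 of the let-7 processing genes and 8 of the other targets were called lower, and without WT 3 the number of targets was 5.

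The IGF system was divided, with 6 of 17 tested genes called lower (35.3%) and 3 higher (17.65%). Among all genes these shares were 13.9% and 13.4%. Igfbp2, a binding protein of fetal tissues, fell from 6.55 ± 3.09 to 0.0711 ± 0.0478 CPM (SD, n = 3). Igfals, which holds circulating IGF in a ternary complex, rose from 0.219 ± 0.0197 to 3.71 ± 2.50 CPM, a log2 fold change of 4.10 (SE 0.70, adjusted p = 0.00146). Pappa2, a protease of IGF binding proteins, had a log2 fold change of -2.70 (SE 0.38). Of 18 other imprinted genes of the fetal growth network, 13 were called lower (72.2%) and 1 higher, and the list median was -2.54. Mest fell from 491 ± 74.7 to 12.5 ± 2.21 CPM, Plagl1, a zinc finger factor that regulates this network, from 488 ± 35.4 to 22.3 ± 1.17 CPM, and Rtl1, a neighbor of Dlk1, from 1.66 ± 0.106 to 0.161 ± 0.0555 CPM.

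Of 9 genes that set or keep imprints, 4 were called lower (44.4%), where 13.9% of all genes were. They included Uhrf1, which brings Dnmt1 to replicating DNA (log2 fold change -2.84), Zfp57, which protects imprints (-2.25), and the DNA methyltransferase Dnmt3a (-1.32). Of 10 other high mobility group genes, 5 were called lower, led by Hmgb2 (-2.50), Hmgn3 (-2.17) and Tox (-1.61). Of 9 genes whose proteins are found with Igf2bp1, 2 were called lower, Elavl2 (-2.04) and the poly(A)-binding Pabpc1 (-1.43), and Stau2 was called higher (1.18). These are 22.2% lower and 11.1% higher, against 13.9% and 13.4% of all genes. By library size alone, 8 imprint maintenance and 4 partner genes were called lower, and Stau2, at 0.78, passed 2-fold no longer.

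**Figure D4:**
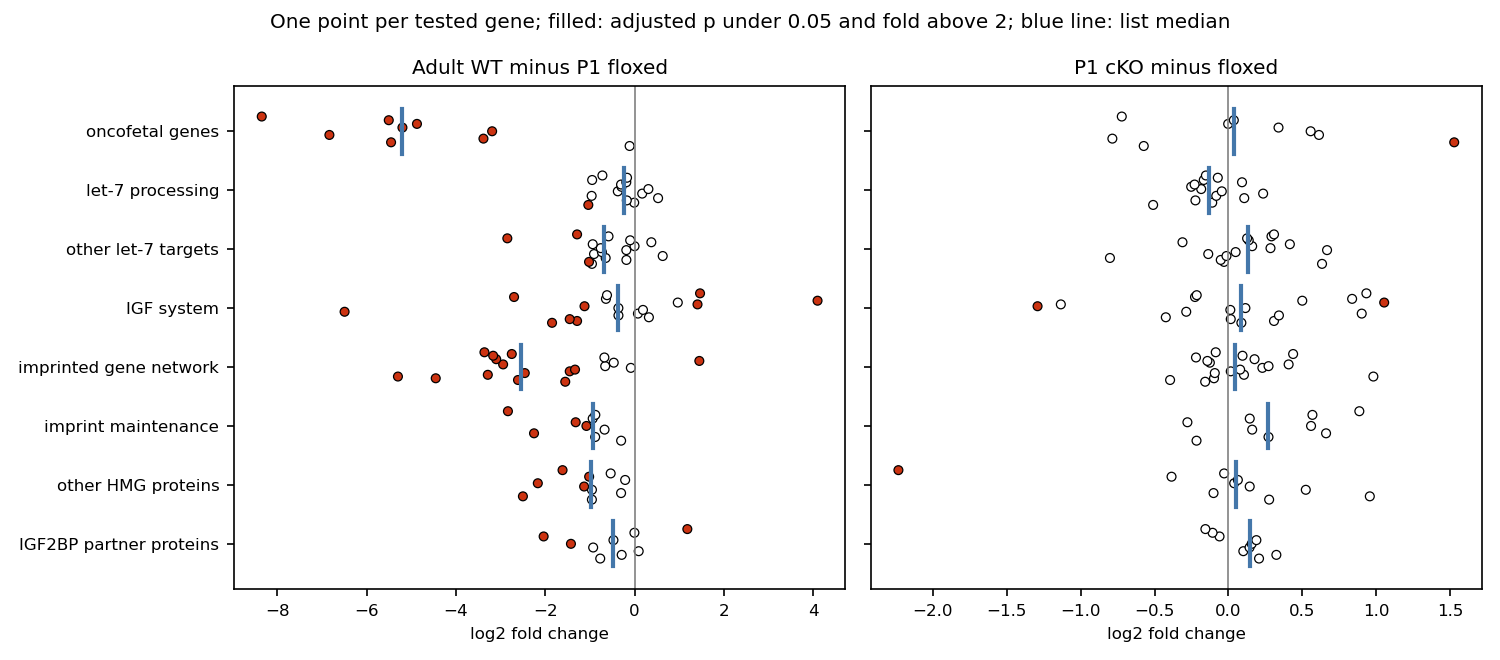
Log2 fold change (x axis) of every tested gene of each list, for adult WT minus P1 floxed (left) and P1 cKO minus floxed (right), with 1 point per gene. Filled points were called and blue lines are list medians. The oncofetal genes and the imprinted network lie furthest left by age, at medians of -5.20 and -2.54, and list medians lie between -0.13 and 0.27 in cKO hearts.

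KI/KI hearts were compared with WT hearts to ask whether the adult mutant heart returns to a fetal level of these genes. None of the 6 genes that passed the filter was called in either direction with edgeR's test, and none had an unadjusted p under 0.05. Over all 14592 genes 0.0% were called higher, 0.0% lower and 0.0% at any fold, although 2363 had an unadjusted p under 0.05. DESeq2 gave 529 genes with an adjusted p under 0.05 and limma-voom 0. None of these 6 genes was called by either, but DESeq2 gave no adjusted p for Hmga1 and Lin28b. Igf2 was at 93.8, 65.0 and 55.6 CPM in KI/KI hearts and H19 at 60.7, 55.6 and 46.2 CPM, overlapping WT. Their log2 fold changes were -0.28 (SE 0.18, adjusted p = 0.450) and -0.14 (SE 0.13, adjusted p = 0.594). Igf2bp2 was at 5.27, 10.04 and 9.04 CPM, with a log2 fold change of 0.40 (SE 0.24, adjusted p = 0.422). Igf2bp3 was at 1.49, 1.06 and 1.74 CPM (-0.18, SE 0.28) and Hmga1 at 0.446, 0.338 and 0.253 CPM (0.029, SE 0.34). The coefficient of variation of Igf2 was 27.8% over KI/KI hearts and 3.26% over WT hearts. With KI/KI 4 left out Igf2bp2 was at a log2 fold change of 0.63 and Igf2 at -0.52 (SE 0.086, adjusted p = 0.0631), neither called. Marker sums were uneven over KI/KI 4, 5 and 6. Fibroblast markers summed to 1933, 3802 and 2276 CPM, against 1577 to 1926 CPM in WT hearts. Cardiomyocyte markers summed to 75520, 59850 and 69670 CPM, against 75600 to 83860 CPM in WT hearts. The part of these markers in the levels of the oncofetal genes was not tested.

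Lin28b was the 1 of the 6 genes whose groups did not overlap, as in 22.0% of all genes. KI/KI hearts were at 0.357, 0.362 and 0.337 CPM, from 12, 15 and 12 counts, and the log2 fold change of -0.24 (SE 0.28, adjusted p = 0.687) was within the spread. The remaining genes were too low to be tested, though Igf2bp1 and Dlk1 had a lower CPM in every KI/KI heart than in any WT heart. Hmga2 had 3, 0 and 1 counts in KI/KI hearts, against 9 in all in WT, a ratio of 0.404 (95% counting interval 0.0909 to 1.45). Igf2bp1 had 3, 1 and 4 counts, a ratio of 0.428 (0.160 to 1.05), and Dlk1 4, 7 and 4 counts, a ratio of 0.568 (0.277 to 1.13). Each interval includes 1 and ends far below the P1 to adult differences of 45.4-fold, 116-fold and 330-fold. No gene of the 7 pathway lists was called in KI/KI hearts.

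Floxed and cKO hearts were compared to ask whether loss of Lemd2 in cardiomyocytes alters the oncofetal genes while they are still expressed. Hmga2 was higher in every cKO heart, Lin28b and Dlk1 were lower in every cKO heart, and Igf2 and H19 overlapped. Of the 9 genes tested, 1 was called higher and none lower, where 2.85% and 1.78% of all 15317 genes were. At an adjusted p under 0.05 with any fold there were 3, Hmga2, Dlk1 and Igf2bp2, against 16.9% of all genes. The groups did not overlap for 5 of the 9 genes, against 39.3% of all genes. The median log2 fold change of the 9 genes was 0.036, close to that of all genes (-0.0043).

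Hmga2 was at 13.3, 13.3 and 8.15 CPM in cKO hearts (661, 640 and 337 counts) and at 3.29 to 4.78 CPM in floxed hearts. The lowest cKO heart was above the highest floxed heart. The log2 fold change was 1.52 (SE 0.25, adjusted p = 0.0116), a 2.88-fold rise and position 194 of 15317 genes ordered from the highest. It was not called without floxed 1 (log2 fold change 1.39, adjusted p = 0.0702), floxed 2 (1.52, adjusted p = 0.0556) or cKO 5 (1.42, adjusted p = 0.0531). Without cKO 4 it was 1.41 (adjusted p = 0.0261), without cKO 6 1.72 (adjusted p = 0.00181), and with Y-linked level as a covariate 1.39 (adjusted p = 0.0307).

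Lin28b went the other way, at 2.96, 2.44 and 2.20 CPM in cKO hearts and 3.69 to 5.41 CPM in floxed hearts. Its log2 fold change was -0.78 (SE 0.22, adjusted p = 0.0508), a 1.72-fold fall that was under 2-fold and just missed the adjusted p threshold. Under every alternative it stayed under 2-fold, with -0.95 as the lowest log2 fold change. Counts were 147, 117 and 91 in cKO hearts and 179, 248 and 174 in floxed hearts. With DESeq2 the adjusted p was 0.0156 at a log2 fold change of -0.79. By library size alone it was 0.0423, with at least 10 counts in every library 0.0467, and with all 12 hearts in one fit 0.00789. Under all other alternatives it stayed over 0.05. Without floxed 2, the heart with the highest level, the log2 fold change was -0.62 (adjusted p = 0.130). Hmga2 and Lin28b moved in opposite directions as measured, with the change in Lin28b not called. Lin28a had 1, 1 and 0 counts in cKO hearts and was not tested.

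The Igf2bp genes leaned upward in the cKO hearts. Igf2bp2 was at 90.9, 89.7 and 67.9 CPM, above every floxed heart, with a log2 fold change of 0.56 (SE 0.13, adjusted p = 0.0328) that stayed under 2-fold. Igf2bp3 was at 79.4, 79.0 and 66.8 CPM, also above every floxed heart, with a log2 fold change of 0.34 (SE 0.11, adjusted p = 0.0694). Igf2bp1 was at 35.7, 36.6 and 17.2 CPM, where cKO 6 lay under all 3 floxed hearts, and its log2 fold change of 0.61 (SE 0.28) was not called (adjusted p = 0.171). Without cKO 6 the log2 fold change of Igf2bp1 was 0.88 (adjusted p = 0.00358) and that of Igf2bp3 was 0.41 (adjusted p = 0.0204). The adjusted p of Igf2bp2 was over 0.05 in 5 of the 6 fits that left out 1 heart, from 0.0644 without cKO 4 to 0.122 without floxed 1, and it was 0.00310 without cKO 6. With Y-linked level as a covariate it was 0.0781.

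Igf2 was at 2885, 2634 and 2096 CPM in cKO hearts and H19 at 3676, 2801 and 1887 CPM. These ranges surround those of the floxed hearts. The log2 fold changes were -0.0023 (SE 0.15, adjusted p = 0.992) and 0.036 (SE 0.24, adjusted p = 0.928). The ratio of H19 to Igf2 was 1.27, 1.06 and 0.900 in cKO hearts, a wider range than in floxed hearts. Dlk1 was at 52.9, 44.0 and 46.4 CPM, below every floxed heart, with a log2 fold change of -0.72 (SE 0.14, adjusted p = 0.0194), a 1.65-fold fall. Its adjusted p was 0.0583 without floxed 2, 0.0834 without cKO 5 and 0.0864 without floxed 1. Meg3 and Rian, maternally expressed RNAs of the same domain as Dlk1 and named after their values were seen, had log2 fold changes of 0.10 (SE 0.25) and 0.095 (SE 0.22). Hmga1 was at 0.261, 0.313 and 0.145 CPM (log2 fold change -0.57, SE 0.43, adjusted p = 0.374).

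**Figure D5:**
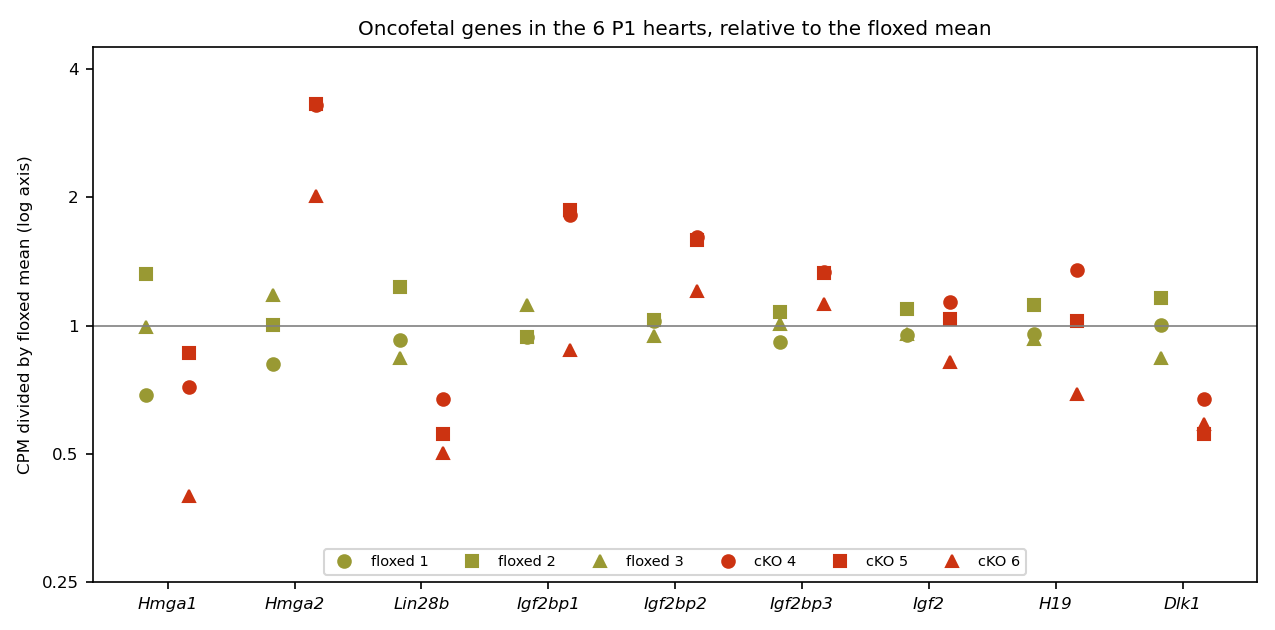
CPM of 9 oncofetal genes in the 6 P1 hearts, divided by the floxed mean of the gene (y axis, log scale), with 1 symbol per heart. Hmga2 in cKO hearts lies at or above 2 times the floxed mean, Lin28b and Dlk1 lie below every floxed heart, and cKO 6 (red triangles) is the lowest cKO heart for 8 of the 9 genes.

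Differences between single hearts ran through these values. The cKO heart labelled 6 was the lowest of its group for 8 of the 9 genes, all but Dlk1, and floxed 2 was the highest of its group for 7. Floxed 2 also had the highest lung marker sum of the P1 hearts, and cKO 6 the highest sum of 6 proliferation markers, 1085 CPM. Proliferation markers summed to 453 and 544 CPM in the other cKO hearts and to 280 to 393 CPM in floxed hearts, and 3 of 6 were called higher. Among all genes, 2.85% were called higher and 1.78% lower. Fibroblast markers summed to 6833 to 7467 CPM in cKO and 5006 to 5603 CPM in floxed hearts, with 1 of 6, Tcf21, called higher. Smooth muscle markers summed to 1372 to 2739 CPM and 1121 to 1511 CPM, with Tagln and Cnn1, 2 of 4, called higher. Cardiomyocyte markers summed to 36410 to 37300 CPM and 40540 to 46180 CPM, with 1 of 9 called higher and 1 lower. Macrophage markers summed to 87.2 to 133 CPM and 55.9 to 68.7 CPM, with Cd68 and C1qa, 2 of 5, called higher. Endothelial markers summed to 1277 to 1555 CPM and 1093 to 1179 CPM, with Emcn, 1 of 6, called higher. None of these markers was at 0 in either group, and their part in the levels of Hmga2, Lin28b, the Igf2bp genes and Dlk1 was not tested.

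The pathway lists held few calls in cKO hearts, where 2.85% of all genes were called higher and 1.78% lower. None of 14 let-7 processing genes, 16 other let-7 targets, 18 imprinted genes, 9 imprint maintenance genes or 9 Igf2bp partner genes was called. In the IGF system, Igfbp5, an IGF binding protein of muscle, fell from 969 ± 188 to 397 ± 101 CPM (SD, n = 3), a log2 fold change of -1.29 (SE 0.21, adjusted p = 0.0123). Igfbp7, a secreted protein of vessels with low affinity for IGF, rose from 65.1 ± 6.22 to 135 ± 15.5 CPM, a log2 fold change of 1.05 (SE 0.11, adjusted p = 0.00535). Without floxed 1, Igfbp5 was not called (adjusted p = 0.0603), and by library size alone Igfbp7 was under 2-fold. Of the other high mobility group genes, Tox, a factor of lymphoid development, fell from 8.30 ± 2.10 to 1.77 ± 0.165 CPM, a log2 fold change of -2.23 (SE 0.24, adjusted p = 0.00606). At any fold, 1 of 14 let-7 processing genes had an adjusted p under 0.05, against 16.9% of all genes. Every other list held such genes too, among them 2 higher and 2 lower in the IGF system. It was Zcchc11, named after its value was seen, with a log2 fold change of -0.51 (SE 0.10, adjusted p = 0.0180).

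The 2 genotype effects were set against each other in a fit of all 12 hearts. None of the 9 genes tested had an adjusted p under 0.05 for the difference between them with edgeR's test, and none an unadjusted p under 0.05, where 2.43% of 15729 genes had such an adjusted p. Hmga2 had the widest difference, 2.76 higher in cKO on the log2 scale (SE 1.30, adjusted p = 0.252), and its adult arm rests on 9 counts over the WT hearts and 4 over the KI/KI hearts. DESeq2 gave an adjusted p of 0.0353 for Hmga2, the 1 of the 9 genes called with that tool, and limma-voom called 0.

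Ordered by mean level, floxed or cKO hearts came first and adult hearts last for Hmga2, Lin28b, the 3 Igf2bp genes, Igf2, H19 and Dlk1. Neighbors in this order did not separate for cKO and floxed hearts in Igf2bp1, Igf2 and H19, or for WT and KI/KI hearts in Hmga2, Igf2bp2, Igf2bp3, Igf2 and H19. In Hmga1 no neighbors separated. The genes whose log2 CPM followed Hmga2 best over the 12 hearts among 15729 genes were Cox8a, Hs6st2 and Celf1 (Pearson r 0.992, 0.991 and 0.991). For Lin28b they were Ist1, 1200014J11Rik and Rbm25 (0.994, 0.993 and 0.992), and for Igf2 they were Smarca1, Tnni1 and Ptbp2 (0.997, 0.997 and 0.996). The points fall into 6 adult and 6 P1 hearts, so these values describe the split by age.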

How the data were processed

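Whole-heart poly(A) RNA of 12 mice was sequenced, 1 library per mouse. The authors trimmed reads with Trim Galore, aligned them with STAR 2.7.2b to mm10, used HTSeq for read counts per gene and deposited these raw counts as whole numbers, without normalization. HTSeq's mode and strand setting are not given in the sources used here. Of 24062 rows, 3623 were at 0 in every library. Totals are given with the results.

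Counts were tested in R 4.3.3 with edgeR 4.0.16 (filterByExpr, TMM, robust quasi-likelihood test), each comparison on its own 6 libraries and the interaction on all 12. P-values were adjusted by Benjamini-Hochberg over all tested genes, and standard errors were derived by dividing log2 fold changes by the root of the F statistic. Pooled ratios carry exact (Clopper-Pearson) intervals on summed counts. CPM per kb used the exon union of GENCODE M21. The test was checked on simulated counts. Alternatives were RLE size factors, library size alone, a filter of 10 counts in every library or none, DESeq2 1.42.0, limma-voom (limma 3.58.1), all 12 hearts in one fit, no fold threshold, a Y-linked covariate, a replicate block, each library left out and, added after seeing the data, legacy dispersion.

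The 10 genes and the lists were chosen with earlier results of these data known. Named genes are the 10, up to 3 called genes per list and comparison with the largest change, and the 3 genes most like Hmga2, Lin28b and Igf2. Of the list symbols, 3 had no row. The lists share some genes, so their counts are not independent. Igf1r is in the other let-7 targets and the IGF system, and Igf2r in the IGF system and the imprinted network. Dcn is in the imprinted network and the fibroblast markers. Markers of endothelium, macrophages, erythroid cells, thymus, liver and skeletal muscle were also measured. Erythroid, thymus, liver and skeletal muscle sums were at most 30.4, 2.83, 3.92 and 29.6 CPM in any heart. Every adult globin row in the erythroid list, alpha or beta, was at 0 in all hearts. The erythroid sum came mostly from Alas2, at 12.0 to 28.4 CPM, and does not measure how much blood the hearts held. Endothelial sums were 1093 to 1555 CPM, and macrophage sums 55.9 to 335 CPM. Some results on single genes are not reported here.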

Additional observations from a re-analysis of the deposited data

How the results depend on the processing

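The 8 oncofetal genes called lower in adult hearts numbered 8 or 9 under every alternative except a minimum of 10 counts in every library, which left 5, since Hmga2, Igf2bp1 and Dlk1 then were not tested. Where the number was 9, the added gene was Lin28a, which is at or under the floor. No oncofetal gene was called in KI/KI hearts under any of the 15 alternatives, though DESeq2 gave no adjusted p for Hmga1 and Lin28b. In cKO hearts the count of 1 ranged from 0 to 1 with each library left out and was 3 with no fold change threshold. For the difference between the models it was 0, and 1 with DESeq2.

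Reversed directions were never called, though not all were near 0. H19 in cKO hearts was at -0.23 (SE 0.19) without cKO 4, the heart with Xist. In cKO hearts Igf2 was at 0.0034 without a filter, and H19 at -0.035 by library size alone, -0.020 with limma-voom and -0.26 with the Y-linked covariate. In KI/KI hearts Hmga1 was at -0.00053 with limma-voom. For the difference between the models Igf2bp2 was at -0.0020 and Dlk1 at -0.069 by library size alone, and with the Y-linked covariate H19 was at -0.092 and Dlk1 at -0.0095. With a library left out, the ranges were -0.32 to 0.13 for Hmga1 by age, -0.17 to 0.20 and -0.35 to 0.056 for Hmga1 and Igf2bp3 in KI/KI hearts, and -0.12 to 0.12 and -0.23 to 0.25 for Igf2 and H19 in cKO hearts. For the difference between the models they were -0.068 to 0.35 for Igf2bp2, -0.065 to 0.40 for H19 and -0.029 to 0.31 for Dlk1. Their causes were not tested.

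Over all genes, cKO calls of 437 higher and 273 lower ranged from 58 to 601 and from 45 to 356 with a library left out. KI/KI calls were 0, but 108 higher and 44 lower with DESeq2, 21 and 11 with all 12 hearts in one fit, and 27 and 11 without KI/KI 4. The 383 genes that differed between the models were 601 by library size alone, 1343 with DESeq2, 218 with the Y-linked covariate and 51 to 924 with a library left out. Correlations of deviations from the group mean, with 3 hearts per group, cannot settle whether replicate numbers pair the samples. Same-numbered WT and floxed hearts had correlations of -0.24, -0.29 and -0.54, and differently numbered ones -0.30 to 0.44. Same-numbered KI/KI and cKO hearts had 0.21, 0.20 and 0.085, and differently numbered ones -0.32 to 0.175. With a replicate block, 8 oncofetal genes were called by age, and 0 oncofetal genes and 0 of all genes differed between the models. Depth limits Hmga2, Igf2bp1, Dlk1 and Lin28a in adult hearts, where counts were at most 9.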
